A study of Homo sapiens and Mus musculus with 36 samples.

Results

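The 33 genes followed here encode the machinery that builds ribosomes. They were given as a list of gene symbols and looked up by symbol, in mouse letter case for mouse cells, in 13 deposited comparison tables that together name 26868 genes in human cells and 16699 genes in mouse cells. All 33 symbols were found in all 13 tables. In a cell, RNA polymerase I transcribes the ribosomal DNA inside the nucleolus, small nucleolar ribonucleoproteins (snoRNPs) modify and help cut the precursor RNA, the small-subunit processome folds the future small subunit on it, and a separate set of assembly factors builds the large subunit. Growing and tumour cells, hepatoma and lymphoma lines among them, are known for high output of this pathway, and the transcription factor MYC is a known activator of many of its genes.

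By role, 7 of the genes belong to snoRNPs: FBL (fibrillarin, the methyltransferase of box C/D snoRNPs) with its scaffold partners NOP56 and NOP58, DKC1 (dyskerin, the pseudouridine synthase of box H/ACA snoRNPs) with its partners GAR1 and NHP2, and NOLC1, a snoRNP chaperone. RNA polymerase I is represented by 3 subunits, POLR1A, POLR1B and POLR1C. The small subunit has 9 genes: NOP14, RRP9, RRP12, UTP20, WDR43, WDR75, IMP4, the methyltransferase EMG1, and NOB1, the nuclease that makes the last cut in small-subunit RNA. Large-subunit assembly has 9 as well: NOP16, the methyltransferase NOP2, the partners BOP1, PES1 and WDR12 of one complex, RRS1, PPAN, NIP7, and GNL3 (nucleostemin, a nucleolar GTPase). The other 5 are nucleolar proteins with several tasks: NPM1 (nucleophosmin), NCL (nucleolin), MYBBP1A, LYAR and the RNA helicase DDX21.

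The series holds 36 RNA-seq libraries, 2 in each of 18 groups. HepG2, a human hepatoma line, received 5 uM of MS7126, C24, MS7126N1 or MS7126N2 for 48 h, with DMSO as control. MS7126 is described as a PROTAC against EZH2, a compound made to have the protein degraded, C24 as the inhibitor of EZH2's enzymatic activity that matches it, and MS7126N1 and MS7126N2 as analogs that are not PROTACs. EZH2 is the histone methyltransferase of Polycomb repressive complex 2. Huh7, also a human hepatoma line, received 5 uM of MS7126 or DMSO for 24 h by the labels of its own libraries, while another protocol of the series gives 48 h for both lines. WEHI-231, a mouse B lymphoma line, received for 16 h 1 uM of MS8815 (a PROTAC against EZH2), EPZ-6438 (the matching enzymatic inhibitor) or MS8815N (an analog that is not a PROTAC), with DMSO as control. In a second arm, HepG2 libraries labelled shEZH2, #664, #665 and #667 (the last 3 being hairpins against SREBP2, the sterol-responsive transcription factor encoded by SREBF2) were set against shControl, and Huh7 shEZH2 against its own shControl. All hairpin cells, controls included, carried a pLKO.1 lentivirus and were selected with puromycin, and the labels call the control a scramble in one place and an empty vector in another. Nothing in the labels ties the 2 libraries of a group to separate cultures, and the p-values measure the spread between these libraries, which may be technical.

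Huh7 shEZH2 is the comparison with values per library, with 11240577 and 11954361 estimated counts in the shEZH2 libraries and 11300078 and 10106231 in the shControl libraries. In the other 12 tables a gene has one mean over both groups, a log2 fold change and its standard error (SE), so library depth is unknown there, and the levels given below for treated and control cells were rebuilt from that mean and fold change. EZH2 fell in Huh7 shEZH2, with 13.6 ± 0.467 CPM (normalized for library size) in shEZH2 libraries and 86.1 ± 4.96 CPM in shControl libraries (SD, n = 2 each). In the HepG2 libraries labelled shEZH2, EZH2 was higher than in shControl, with a log2 value of 0.90 (SE 0.38, adjusted p = 0.0337) in the authors' deposited table, which goes against the label. SREBF2 fell with each hairpin against it, with log2 values of -1.58 (#664), -1.08 (#665) and -2.35 (#667) by the authors' deposited tables. Hepatocyte markers were abundant in both human lines, with a mean of 35524 normalized counts for ALB in the HepG2 MS7126 table and 194266 in the Huh7 MS7126 table, by the authors' deposited tables, and they moved with the groups. Of 7 such markers, 5 fell and 0 rose with MS7126 in HepG2 and 6 fell and 0 rose with MS7126 in Huh7, ALB with -0.97 and -0.92, in the authors' deposited tables (Wald test). Their summed level, rebuilt from the authors' deposited tables, was 120938 with MS7126 and 243489 with DMSO in HepG2, and 320781 with MS7126 and 577541 with DMSO in Huh7. With the HepG2 hairpins (labelled shEZH2, #664, #665 and #667) 6, 5, 3 and 5 of the 7 rose and 1, 1, 3 and 2 fell in the authors' deposited tables. ALB had 1.38, 1.52, 0.19 (not called) and 1.01, and TTR 0.85, -1.16, -0.37 and -0.35, in those tables. In Huh7 shEZH2, 1 of the 7 rose (TTR, 0.66) and 4 fell in the authors' deposited table. Those that fell were ALB (-0.53), AFP (-0.74), APOA2 (-1.33) and APOA1 (-0.25). Of all genes tested in that table, 11.6% rose and 11.8% fell. Of 3 myeloid markers LYZ had 7369 in the HepG2 MS7126 table and fell there (-0.71), in the authors' deposited table. LYZ also fell with MS7126 in Huh7 (-0.48), in Huh7 shEZH2 (-0.16) and with each HepG2 hairpin (-0.11, -0.85, -0.67 and -0.29). CD68 fell in labelled shEZH2 (-1.03) and with #665, and rose with #664 (1.16) and in Huh7 shEZH2 (0.97), in the authors' deposited tables. The fibroblast gene COL1A1 fell with each HepG2 hairpin (-3.54, -2.70, -1.14 and -1.61) in the authors' deposited tables. COL1A1 also fell with MS7126 (-0.52) and C24 (-0.77) in HepG2, and rose with MS7126 in Huh7 (2.36, at a mean of 46.9), in the authors' deposited tables. T cell markers had means of at most 43.7 in the authors' deposited tables of human cells. The part of these markers in the results was not tested. In WEHI-231 the B cell gene Cd79a had a mean of 37407 and Cd3d one of 9.31 in the authors' deposited table for MS8815. Of 6 B cell markers, 4 fell and 0 rose in that table, Cd79a with -0.16, Cd79b with -0.19, Cd22 with -0.19 and Ighm with -0.13. With EPZ-6438 and MS8815N 0 of the 6 rose and 0 fell in the authors' deposited tables. The part of these B cell markers in the results was not tested either. For the other comparisons with marker counts, the shares of all genes called are given below.

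Many of these genes carry the E-box CACGTG, the motif that MYC with its partner MAX and related factors can bind, beside their start sites. Of the 28 member genes with a RefSeq promoter entry (GRCh38.p14, 250 bases before to 50 after the start), 13 (46.4%) hold it, against 10.9% of 15843 protein-coding promoters and 8.77% of 27305 promoters of all genes. The motif reads the same on both strands and no other motif was searched. There were 14 sites, and in 11 of them the first base of the motif lay between -10 and +36 of the start site. That stretch was set from the members' own sites, and it holds 13.7% of the sites in protein-coding promoters. The windows of 30 bases below are shown because they belong to the 6 genes with the motif that rose under MS7126 in HepG2, and to FBL, a gene with the motif that did not. Each reads 5′ to 3′ along the gene's strand with the motif in capitals.
GAR1: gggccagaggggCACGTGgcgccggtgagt
RRP9: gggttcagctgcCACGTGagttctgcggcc
WDR43: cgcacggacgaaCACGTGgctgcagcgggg
IMP4: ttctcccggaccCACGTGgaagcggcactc
PES1: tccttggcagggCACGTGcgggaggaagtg
MYBBP1A: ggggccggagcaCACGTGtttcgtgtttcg
FBL: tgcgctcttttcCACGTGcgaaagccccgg
The windows lie at chr4:109815781-109815810 (+, GAR1), chr3:51941892-51941921 (-, RRP9), chr2:28894658-28894687 (+, WDR43), chr2:130342900-130342929 (+, IMP4), chr22:30591880-30591909 (-, PES1), chr17:4555340-4555369 (-, MYBBP1A) and chr19:39846356-39846385 (-, FBL) of GRCh38.p14. The motif begins at +32 in GAR1, -5 in RRP9, +4 in WDR43, +16 in IMP4, +14 in PES1, +28 in MYBBP1A and +7 in FBL. A match is a description of the letters, not evidence of binding.

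**Figure D1:**
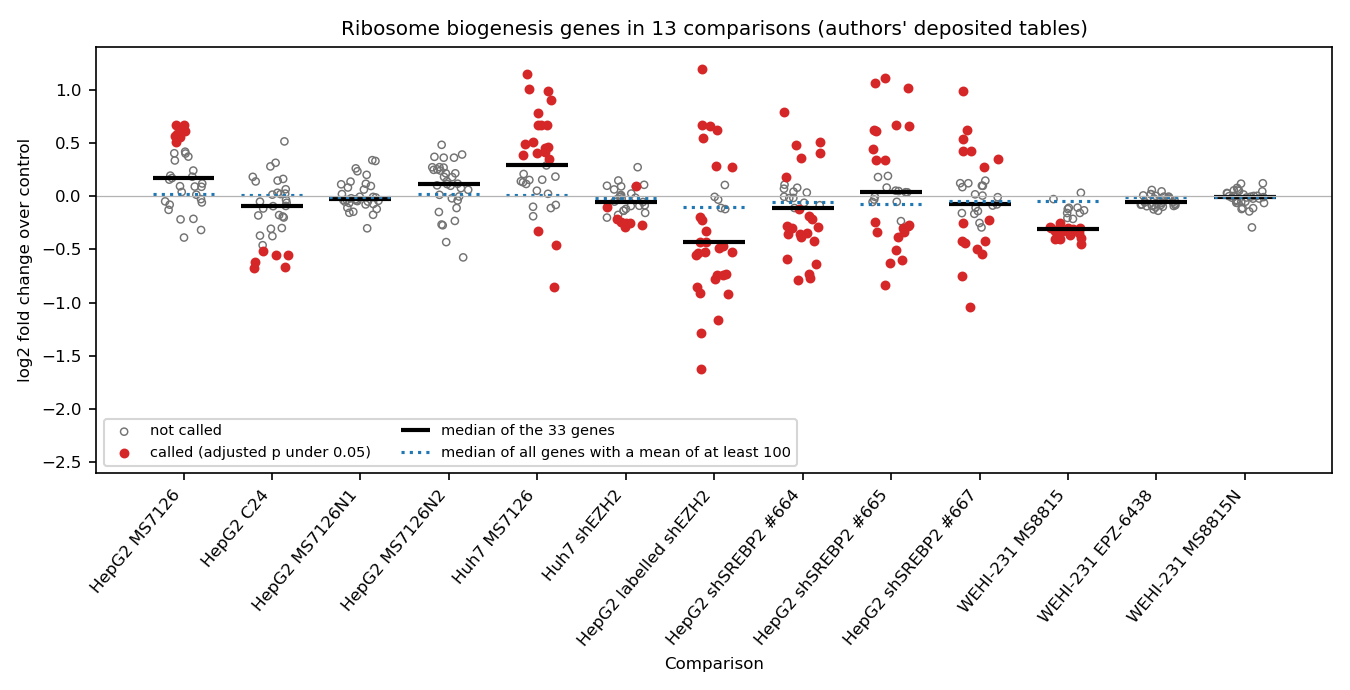
Log2 fold change (y axis) of the 33 genes over the control in each of the 13 comparisons (x axis), from the authors' deposited tables, with the murine Nolc1 left out at a mean under 20. Red points have an adjusted p under 0.05, the black bar is the median of the 33 genes and the dotted bar the median of all well-measured genes (mean of 100 or more). The black bar lies above the dotted one for MS7126 in HepG2 (0.17) and Huh7 (0.29), and below it for the HepG2 libraries labelled shEZH2 (-0.43) and for MS8815 (-0.31).

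In HepG2, 8 of the 33 genes rose with MS7126 and 0 fell in the authors' deposited table (Wald test in the layout of DESeq2, adjusted p under 0.05), where 7.44% of all genes tested were called higher and 8.06% lower. Among well-measured genes, those with a mean of 100 or more, the shares were 9.16% and 10%. An unadjusted p under 0.05 was seen for 13 of the 33. On the small-subunit side the genes that rose were RRP9, a protein of the U3 snoRNP, WDR43, IMP4 and RRP12. On the large-subunit side they were PES1 and BOP1, and GAR1 and MYBBP1A completed them. Fewer cells of a type and less RNA per cell cannot be told apart in such bulk libraries.

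Rebuilt from the authors' deposited table, PES1 had 2114 normalized counts with MS7126, against 1354 with DMSO. Its log2 fold change was 0.64 (95% interval 0.33 to 0.95, adjusted p = 0.000927) in the authors' deposited table. GAR1 had 501 with MS7126, against 316 with DMSO, and MYBBP1A 1310 with MS7126, against 822 with DMSO, rebuilt from the authors' deposited table. These were the 2 highest changes, 0.67 (SE 0.21, adjusted p = 0.0115) for MYBBP1A and 0.67 (SE 0.23, adjusted p = 0.031) for GAR1 in the authors' deposited table. The others were RRP9 at 0.61 (SE 0.17), RRP12 at 0.58 (SE 0.18), BOP1 at 0.57 (SE 0.14), IMP4 at 0.55 (SE 0.16) and WDR43 at 0.51 (SE 0.17) in the authors' deposited table. With the trend of fold change on transcript GC content taken out, WDR43 was no longer called (adjusted p = 0.0556).

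The abundant nucleolar proteins did not pass, with NPM1 at 0.19 (SE 0.18), NCL at -0.06 (SE 0.16) and DDX21 at 0.37 (SE 0.16, adjusted p = 0.101) in the authors' deposited table. Neither did the methylation core, with FBL at -0.39 (SE 0.16, adjusted p = 0.0737) and NOP56 at -0.32 (SE 0.19), nor POLR1A at 0.09 (SE 0.22), in the authors' deposited table. The median of the 33 was 0.17, against 0.02 over well-measured genes. By role it was 0.33 for large-subunit assembly and -0.08 for snoRNPs. Of the 13 genes whose promoter window holds CACGTG, 6 rose, and of the 15 whose window lacks it, 0. RRP12 and BOP1, which also rose, have no promoter entry, and the split was made after the values were known and has no test. The share of all genes with or without the motif that rose is not given here, so the split has no background. For C24, 2 of the 13 and 2 of the 15 fell in the authors' deposited table.

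With C24, 0 of the genes rose and 6 fell among 32 with an adjusted p in the authors' deposited table (Wald test), where 3.01% of all genes tested were called higher and 4.01% lower; 13 had an unadjusted p under 0.05. They were DKC1, NOP56, NOP58 and NOLC1 of the snoRNPs, and the nucleolar LYAR and DDX21. DKC1 had 1880 normalized counts with C24 and 3012 with DMSO, rebuilt from the authors' deposited table, and a log2 fold change of -0.68 (95% interval -1.06 to -0.30, adjusted p = 0.0118). LYAR had -0.67 (SE 0.19), NOLC1 -0.62 (SE 0.15), NOP58 -0.56 (SE 0.13), NOP56 -0.56 (SE 0.16) and DDX21 -0.52 (SE 0.14) in the authors' deposited table. FBL (-0.19, SE 0.13), NPM1 (0.18, SE 0.08), NCL (0.15, SE 0.09) and POLR1A (0.03, SE 0.18) did not pass in the authors' deposited table. The median of the 33 was -0.09, against 0.01 over well-measured genes, and that of the 7 snoRNP genes was -0.56.

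MS7126 and C24 were given at the same dose and time, and the difference of their fold changes over the same DMSO libraries was tested. It was above 0 for 5 genes and below 0 for 0 at an adjusted p under 0.05, a call that 1.87% of all genes passed on the higher side and 2.84% on the lower; 15 of the 33 had an unadjusted p under 0.05. DDX21 differed by 0.89 (95% interval 0.48 to 1.30, adjusted p = 0.00109). WDR43 differed by 0.81 (0.39 to 1.23), NOP16 by 0.77 (0.30 to 1.25), IMP4 by 0.73 (0.30 to 1.16) and BOP1 by 0.62 (0.22 to 1.01). DDX21 and NOP16 were not called with MS7126 alone. The median difference was 0.45, against 0.04 over well-measured genes. With a covariance of the shared DMSO libraries subtracted, 13 genes differed. That covariance was assumed from the SEs, not estimated, and the share of all genes that passed this way is not given here.

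With the analogs that are not PROTACs, 0 genes rose and 0 fell for MS7126N1 (0 at an unadjusted p under 0.05), and 0 and 0 for MS7126N2 (3 at an unadjusted p under 0.05), by the Wald test of the authors' deposited tables. Of all genes tested, 0.0744% and 0.085% were called higher and lower with MS7126N1 and 0.362% and 0.341% with MS7126N2. Values ran from -0.30 to 0.34 with MS7126N1 and from -0.58 (DKC1) to 0.48 (MYBBP1A) with MS7126N2 in the authors' deposited tables. Between MS7126 and MS7126N1, BOP1 alone differed, by 0.68 (95% interval 0.28 to 1.08, adjusted p = 0.033), where 1.32% of all genes were higher and 1.93% lower. Of the 33, 7 had an unadjusted p under 0.05, and 7 passed with the assumed shared covariance subtracted, again without a share of all genes. Between MS7126 and MS7126N2, 0 differed (0 at an unadjusted p under 0.05), where 0.443% of all genes were higher and 0.909% lower. The 95% intervals there reached a median of 0.53 to either side, so these data do not show that MS7126 and MS7126N2 act alike. For PES1 the difference was 0.25 with an interval of -0.21 to 0.71.

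**Figure D2:**
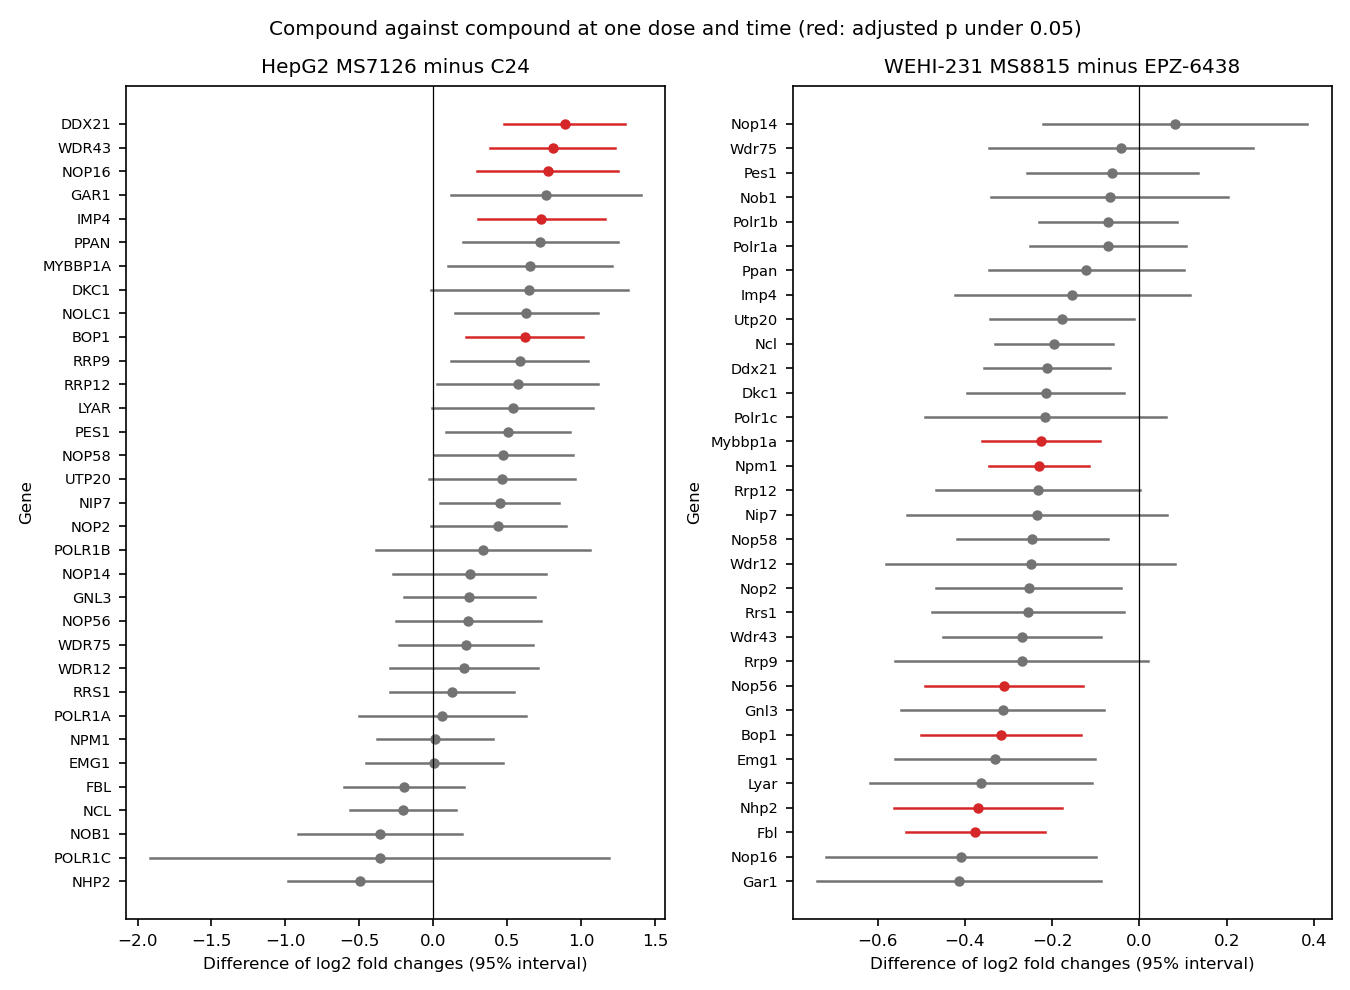
Difference between compounds in log2 fold change over DMSO (x axis, with 95% intervals) for each gene (y axis): MS7126 minus C24 in HepG2 at 5 uM and 48 h (left) and MS8815 minus EPZ-6438 in WEHI-231 at 1 uM and 16 h (right, without Nolc1). Red marks an adjusted p under 0.05 over all genes, with 5 genes on the left, all above 0, and 6 on the right, all below 0.

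In Huh7, 16 of the 33 genes rose with MS7126 and 3 fell in the authors' deposited table, where 17.5% of all genes tested were called higher and 16.3% lower (22.9% and 21.8% of well-measured genes). The large-subunit factors PPAN and NIP7 and the processome proteins WDR43 and WDR75 were the highest. PPAN had 1417 normalized counts with MS7126 and 639 with DMSO, rebuilt from the authors' deposited table, and a log2 value of 1.15 (SE 0.19, adjusted p = 4.62e-08). Its exons overlap those of the read-through gene PPAN-P2RY11, whose reads cannot be told apart. WDR43 had 1.00 (SE 0.15), WDR75 0.99 (SE 0.37) and NIP7 0.90 (SE 0.12) in the authors' deposited table. DDX21 had 8840 normalized counts with MS7126 and 5136 with DMSO, rebuilt from the authors' deposited table, and a log2 value of 0.78 (SE 0.10, adjusted p = 1.78e-12). GAR1, DKC1 and RRP12 had 0.67, 0.67 and 0.67, and the other 8 that rose lay between 0.35 (NOP58) and 0.51 (NOP16), POLR1A at 0.41 among them, in the authors' deposited table.

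NHP2, FBL and NOB1 fell. NHP2, a partner of DKC1 and GAR1 in box H/ACA snoRNPs, had 1325 normalized counts with MS7126 and 2396 with DMSO, rebuilt from the authors' deposited table, and a log2 value of -0.85 (SE 0.15, adjusted p = 8.31e-08). FBL had -0.46 (SE 0.16, adjusted p = 0.0151) and NOB1 -0.32 (SE 0.13, adjusted p = 0.0333) in the authors' deposited table. With the GC trend taken out, 5 genes were no longer called, FBL, NOB1, NOP58, WDR75 and UTP20 (adjusted p = 0.116, 0.32, 0.188, 0.0811 and 0.0626). NPM1 (-0.10, SE 0.11), NCL (-0.08, SE 0.09) and NOP56 (0.02, SE 0.13) did not pass in the authors' deposited table. The median of the 33 was 0.29, against 0.01 over well-measured genes. Among genes with CACGTG 6 of 13 rose in Huh7, and among those without it 6 of 15, again without a share of all genes. The time given for Huh7 differs between labels, so HepG2 and Huh7 values stand side by side without a test.

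After knockdown of EZH2 in Huh7, by edgeR's quasi-likelihood test on rounded estimated counts, 3 of the 33 genes rose and 11 fell, where 19.5% of all genes tested were called higher and 19.3% lower (21.8% and 25.3% of well-measured genes). The libraries of both groups did not overlap for 23 of the 33 genes, which lies near the 68.6% of all genes tested. NOP58 and GAR1 did not overlap either and were not called (edgeR adjusted p = 0.386 and 0.483). DDX21 had 189 and 195 CPM in the shEZH2 libraries, against 237 and 232 CPM in the shControl libraries. Its log2 fold change, -0.29 (SE 0.03), was the lowest of the 33, and the groups lay apart. Among small-subunit factors, EMG1 had 72.5 and 74.3 CPM in the shEZH2 libraries, against 92.3 and 84.4 CPM in the shControl libraries, and RRP12 45.1 and 46.7 CPM in the shEZH2 libraries, against 54.2 and 55.5 CPM in the shControl libraries. EMG1 had a log2 value of -0.27 (SE 0.05, edgeR adjusted p = 0.000788) and RRP12 one of -0.25 (SE 0.06, edgeR adjusted p = 0.00305), with no overlap in either.

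RRS1, which in yeast helps bring a small ribosomal RNA into the large subunit, had 46.6 and 50.3 CPM in the shEZH2 libraries, against 57.1 and 58.4 CPM in the shControl libraries. LYAR had 63.7 and 58.3 CPM in the shEZH2 libraries, against 72.7 and 72.0 CPM in the shControl libraries. PES1 had 86.9 and 80.6 CPM in the shEZH2 libraries, against 96.9 and 96.8 CPM in the shControl libraries. In each the higher shEZH2 library stayed below the lower shControl library, while the groups lay apart in 68.6% of all genes tested. The other genes that fell by edgeR were NOP2 (-0.18), BOP1 (-0.16), NOB1 (-0.14), NOP14 (-0.12) and NCL (-0.10).

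GNL3, FBL and NPM1 rose. GNL3 had 42.1 and 41.3 CPM in the shEZH2 libraries, against 35.3 and 33.6 CPM in the shControl libraries, a log2 difference of 0.27 (SE 0.07, edgeR adjusted p = 0.00504). FBL had 160 and 161 CPM in the shEZH2 libraries, against 145 and 145 CPM in the shControl libraries, a log2 difference of 0.15 (SE 0.04). NPM1 had 1161 and 1172 CPM in the shEZH2 libraries, against 1093 and 1085 CPM in the shControl libraries, a log2 difference of 0.10 (SE 0.02). NOP56 (-0.02, SE 0.04) and POLR1A (0.02, SE 0.04) overlapped between groups and did not pass. By the authors' deposited table, 1 gene rose (NPM1) and 7 fell, where 11.6% of all genes rose and 11.8% fell. The edgeR median of the 33 was -0.06, against -0.02 over well-measured genes.

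**Figure D3:**
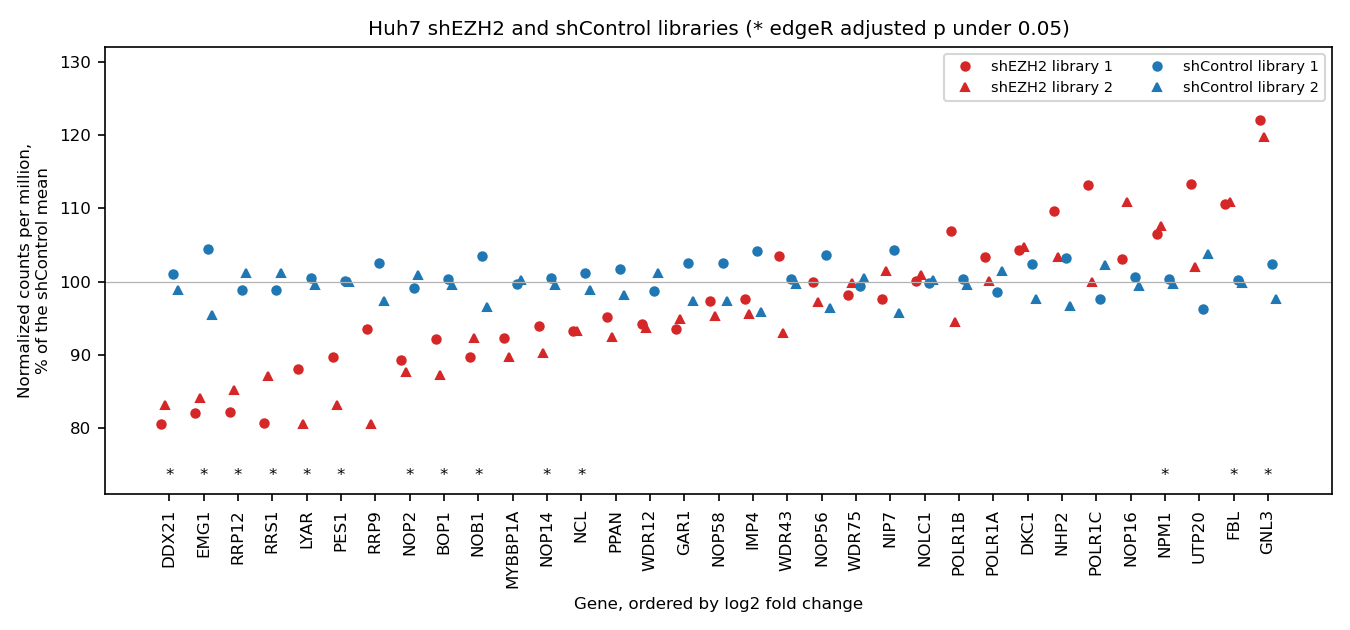
CPM of each gene in the 2 shEZH2 libraries and the 2 shControl libraries of Huh7, as a percentage of the shControl mean (y axis, which does not start at 0), with genes ordered by log2 fold change (x axis). Stars mark an edgeR adjusted p under 0.05, for 11 lower genes from DDX21 on and 3 higher genes up to GNL3.

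In HepG2 the 4 hairpin comparisons share 2 shControl libraries and are not independent. In the libraries labelled shEZH2, 7 genes rose and 21 fell in the authors' deposited table, where 28.4% of all genes tested were called higher and 28.6% lower (30.8% and 39.8% of well-measured genes). The numbers that rose and fell in the authors' deposited tables were 6 and 16 with #664 (all genes 24.9% and 26.8%, well-measured 29% and 36.6%). With #665 they were 10 and 11 (all genes 18.7% and 20%, well-measured 21.3% and 28%), and with #667 7 and 9 (all genes 18.6% and 19.3%, well-measured 20.7% and 25.4%) in the authors' deposited tables. Both numbers with #667 lie near the share of well-measured genes, and the number that fell with #665 lies little above it. The medians of the 33 were -0.43 (labelled shEZH2), -0.11 (#664), 0.04 (#665) and -0.08 (#667), against -0.10, -0.06, -0.07 and -0.05 over well-measured genes. Values below are given in that order of comparisons.

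DDX21 was the highest of the 33 in each of these tables. In the libraries labelled shEZH2 it had 15122 normalized counts, against 6632 in shControl, rebuilt from the authors' deposited table. Its log2 fold changes were 1.19, 0.79, 1.11 and 0.99 by the authors' deposited tables. LYAR had 0.67, 0.48, 1.01 and 0.53 in the authors' deposited tables. The box C/D scaffold genes rose too, NOP58 with 0.62, 0.50, 1.06 and 0.62 and NOP56 with 0.54, 0.36, 0.62 and 0.42, and so did DKC1, with 0.66, 0.40, 0.66 and 0.43, in the authors' deposited tables.

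NHP2 of the box H/ACA particles fell with each hairpin, and FBL of the box C/D particles in 3 of the 4 comparisons. NHP2 had 1287 normalized counts in the libraries labelled shEZH2, against 2886 in shControl, rebuilt from the authors' deposited table, and log2 fold changes of -1.17, -0.73, -0.84 and -0.54. FBL, the methyltransferase that works with NOP56 and NOP58, had -0.43, -0.06 (not called), -0.34 and -0.22 in the authors' deposited tables. NOLC1, the snoRNP chaperone, had -0.92, -0.63, -0.34 and -0.25 (not called), and UTP20 of the processome 0.28, -0.02 (not called), 0.66 and 0.02 (not called), in the authors' deposited tables. The nuclease NOB1 had -0.78, -0.59, -0.63 and -1.04 and NCL -0.91, -0.38, -0.28 and -0.42 in the authors' deposited tables.

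On the large-subunit side, RRS1 had 946 normalized counts in the libraries labelled shEZH2, against 2916 in shControl, rebuilt from the authors' deposited table. It had -1.62, -0.79, -0.38 and -0.44 over the 4 comparisons, and PES1 -1.29, -0.76, -0.60 and -0.75, in the authors' deposited tables. BOP1 had -0.74, -0.35, -0.30 and -0.25 and RRP12 of the small subunit -0.54, -0.35, -0.28 and -0.43 in the authors' deposited tables. NPM1 had -0.43, -0.12, -0.03 (not called) and 0.08 (not called), and POLR1A -0.47, -0.09 (not called), 0.08 (not called) and -0.50, in the authors' deposited tables. Relative to the shift of -0.10 in well-measured genes of the libraries labelled shEZH2, RRS1 stood at -1.52, PES1 at -1.19, NHP2 at -1.06 and DDX21 at 1.29. With #665, 7 genes in place of 11 fell once fold changes were set relative to well-measured genes, without a share of all genes for that setting. The calls lost with #665 were RRP12, IMP4, BOP1 and NCL (adjusted p = 0.156, 0.171, 0.0558 and 0.0508). With #667 FBL and BOP1 lost theirs (adjusted p = 0.142 and 0.0999), and in the libraries labelled shEZH2 PPAN and NOP16 did (adjusted p = 0.358 and 0.245). With the GC trend taken out, FBL, RRP12, IMP4 and NCL were no longer called with #665, nor FBL, WDR75 and BOP1 with #667 (adjusted p for FBL = 0.058 with #665 and 0.38 with #667).

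Small RNAs of the same machinery moved with these hairpins. The entry for 5.8S ribosomal RNA had 2.35, 1.67, 1.56 and 1.65, and RMRP and RPPH1, the RNA parts of enzymes that cut RNA precursors, 2.89, 1.78, 1.63 and 1.90 and 2.75, 1.52, 1.46 and 1.68 in the authors' deposited tables. These RNAs were chosen after their values were seen, and their part in the other values was not tested. The labels name 2 library kits (TruSeq and NEBNext Ultra) without saying which one each library had, so a difference in kit between hairpin and control libraries cannot be told apart from these values.

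Transcript base composition went with the fold changes in several comparisons. Across the 33 genes, which share libraries, the Spearman correlation of log2 fold change with transcript GC content was, for the HepG2 hairpins, -0.55, -0.40, -0.53 and -0.56, against 0.02, -0.01, -0.04 and -0.12 over well-measured genes. With #665 the 10 genes under 45% GC, DDX21, NOP58 and LYAR among them, had a median of 0.48, and the 9 at 55% or more, PES1, NHP2 and RRS1 among them, -0.28. With the GC trend of all genes taken out, DDX21, LYAR, NOP58, DKC1 and NOP56 had an adjusted p of at most 0.0135 with C24 and in the 4 hairpin comparisons. The correlation over the 33 was 0.27 with C24 (0.17 over well-measured genes), -0.21 with MS7126 in Huh7 (-0.21) and -0.33 in Huh7 shEZH2 (-0.08). In HepG2 it was 0.31 with MS7126 (-0.04), -0.46 with MS7126N1 (-0.43) and 0.53 with MS7126N2 (0.05). With MS7126 in HepG2 the 10 genes under 45% GC had a median of 0.15 and the 9 at 55% or more 0.57.

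**Figure D4:**
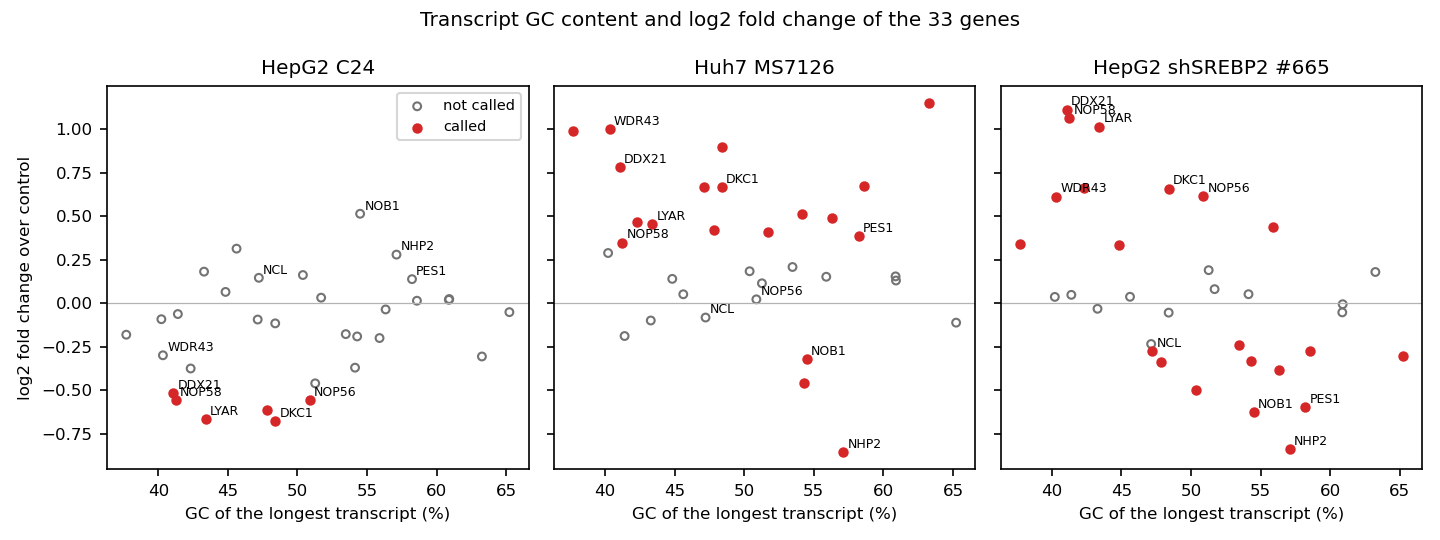
Log2 fold change over control (y axis, authors' deposited tables) of the 33 genes against the GC content of their longest transcript in percent (x axis), with C24 in HepG2, MS7126 in Huh7 and hairpin #665 in HepG2. Red points have an adjusted p under 0.05, and DDX21, NOP58 and LYAR, all under 45% GC, lie low with C24 (-0.52, -0.56 and -0.67) and high with #665 (1.11, 1.06 and 1.01).

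In WEHI-231, 21 of the 32 genes with an adjusted p fell with MS8815 and 0 rose in the authors' deposited table (Wald test), where 5.34% of all genes tested were called higher and 11.8% lower (5.62% and 13% of well-measured genes); 24 had an unadjusted p under 0.05. The median of the 33 was -0.31, against -0.05 over well-measured genes. All 6 snoRNP genes with an adjusted p fell, as did all 5 of the other nucleolar genes, while 0 of the 3 polymerase subunits passed the deposited Wald test (0 at an unadjusted p under 0.05). Fbl had 4872 normalized counts with MS8815 and 6382 with DMSO, rebuilt from the authors' deposited table, and a log2 fold change of -0.39 (95% interval -0.51 to -0.27, adjusted p = 4.33e-09). The called changes ran from -0.45 (Lyar) to -0.25 (Rrs1) in the authors' deposited table. Relative to well-measured genes Rrp9, Rrs1 and Nip7 were no longer called (adjusted p = 0.0525, 0.0718 and 0.0651).

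Gar1 had -0.41 (SE 0.12), Gnl3 -0.40 (SE 0.09) and Wdr43 -0.39 (SE 0.07) in the authors' deposited table. Npm1 had 25899 normalized counts with MS8815 and 32133 with DMSO, rebuilt from the authors' deposited table, and a log2 value of -0.31 (SE 0.05, adjusted p = 1.39e-09). Ncl had -0.30 (SE 0.05), Nop56 -0.33 (SE 0.07) and Ddx21 -0.30 (SE 0.05) in the authors' deposited table. Polr1a (-0.11, SE 0.06) and Polr1b (-0.03, SE 0.06) did not pass, and Nolc1, at a mean of 6.3, had no adjusted p in the authors' deposited table.

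With EPZ-6438 0 genes rose and 0 fell (4 at an unadjusted p under 0.05), and with MS8815N 0 and 0 (1 at an unadjusted p under 0.05), by the Wald test of the authors' deposited tables. All genes were called higher and lower in 0.122% and 0.122% with EPZ-6438 and in 0.0501% and 0.0689% with MS8815N. Fbl had -0.01 (SE 0.05) with EPZ-6438 and -0.06 (SE 0.07) with MS8815N in the authors' deposited tables. Npm1 had -0.08 (SE 0.04) with EPZ-6438 and -0.11 (SE 0.06) with MS8815N in the authors' deposited tables.

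Between MS8815 and EPZ-6438, at the same dose and time, 6 of the 33 genes had a lower fold change with MS8815 and 0 a higher one, where 2.22% and 0.872% of all genes did; 19 had an unadjusted p under 0.05. Fbl differed by -0.38 (95% interval -0.54 to -0.22, adjusted p = 0.000334), and the others were Nhp2 (-0.37), Bop1 (-0.32), Nop56 (-0.31), Npm1 (-0.23) and Mybbp1a (-0.23). Between MS8815 and MS8815N, 6 were lower and 0 higher, where 1.47% and 0.514% of all genes were; 18 had an unadjusted p under 0.05. Nop56 differed by -0.41 (95% interval -0.61 to -0.21, adjusted p = 0.00429), and the others were Utp20 (-0.38), Wdr43 (-0.38), Fbl (-0.33), Dkc1 (-0.33) and Mybbp1a (-0.26). With the assumed shared covariance subtracted the numbers were 19 and 16, and relative to well-measured genes 3 and 3. The shares of all genes under these 2 settings are not given here, so these numbers have no background. These were 5 compound pairs in all, each adjusted over all genes.

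**Figure D5:**
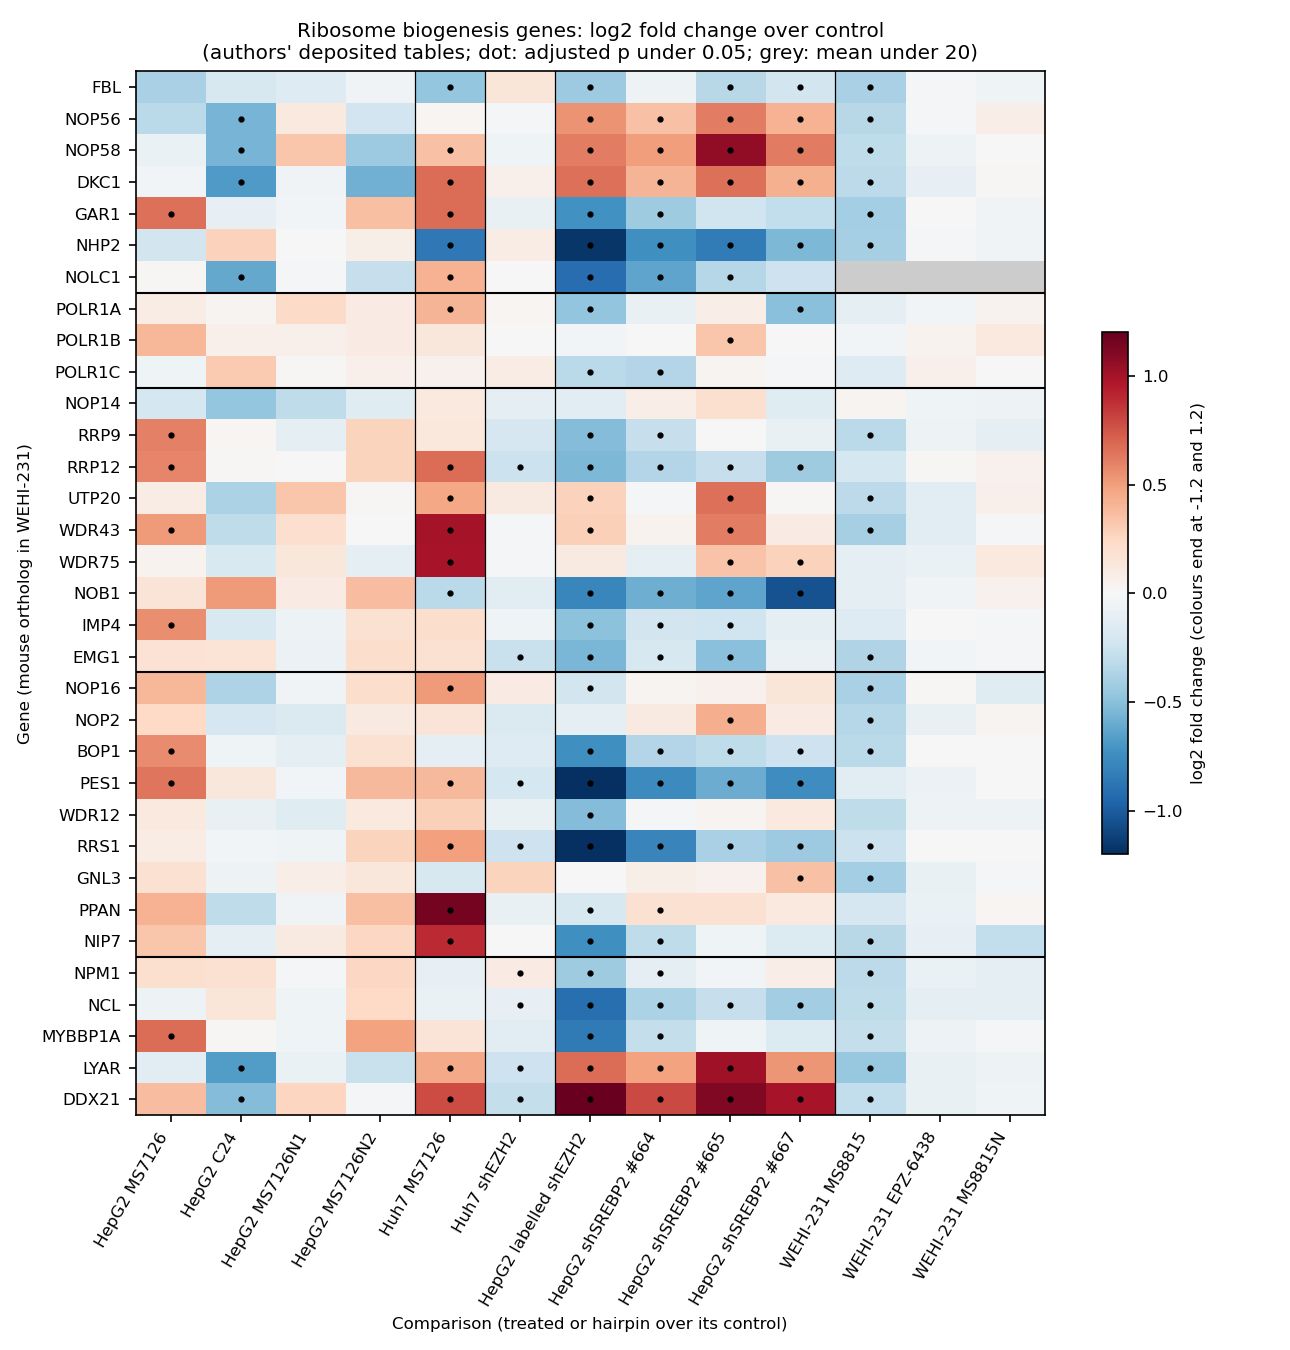
Log2 fold change over control (colour) of each of the 33 genes (y axis, by role) in each comparison (x axis), from the authors' deposited tables. Colours saturate at the ends of the scale, the murine Nolc1 (mean under 20) is grey, dots mark an adjusted p under 0.05, and DDX21 is called lower with C24 (-0.52) and MS8815 (-0.30) and higher with MS7126 in Huh7 (0.78).

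Some genes were called in opposite directions in different comparisons. GAR1 rose with MS7126 in HepG2 (0.67) and Huh7 (0.67) and fell in the libraries labelled shEZH2 (-0.73), with #664 (-0.42) and with MS8815 (-0.41) in the authors' deposited tables. PES1 rose with MS7126 in HepG2 (0.64) and Huh7 (0.38) and fell with each HepG2 hairpin in the authors' deposited tables. WDR43 rose with MS7126 in both human lines and with #665 (0.61), and Wdr43 fell with MS8815 (-0.39), in the authors' deposited tables. RRP9 and IMP4 rose with MS7126 in HepG2 and fell in the libraries labelled shEZH2 (-0.52 and -0.49), while PPAN, NIP7 and NOP16 rose with MS7126 in Huh7 and fell in the libraries labelled shEZH2 (-0.20, -0.74 and -0.22), by the authors' deposited tables. Relative to well-measured genes PPAN had -0.09 and NOP16 -0.12 in those libraries and neither was called. NOP2 rose with #665 (0.44) and GNL3 with #667 (0.35), and Nop2 and Gnl3 fell with MS8815 (-0.35 and -0.40), in the authors' deposited tables. Also called in both directions were NOP56, NOP58, DKC1, NOLC1, POLR1A, RRP12, UTP20, BOP1, RRS1, NPM1, MYBBP1A, LYAR and DDX21. The remaining genes were not called in opposite directions in the authors' deposited tables. POLR1B and WDR75 were called only higher, in 1 and 3 of the authors' deposited tables (0.33 and 0.34 with #665). POLR1C, WDR12 and EMG1 were called only lower, in 2, 1 and 5 of them (-0.33, -0.52 and -0.55 in the libraries labelled shEZH2). With the GC trend taken out, POLR1C was no longer called there (adjusted p = 0.109). NOP14, which fell by edgeR in Huh7 shEZH2, was called in 0 of the authors' deposited tables, with values from -0.46 (C24, adjusted p = 0.0852) to 0.19 (#665).

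Of 116 further ribosome biogenesis factors, 20 rose and 4 fell with MS7126 in HepG2, and 60 rose and 4 fell with MS7126 in Huh7, in the authors' deposited tables. These are 17.2% and 3.45% in HepG2 and 51.7% and 3.45% in Huh7, against 9.16% and 10% and 22.9% and 21.8% of well-measured genes. In Huh7, 28 of 43 small-subunit and 25 of 50 large-subunit factors rose in the authors' deposited table. The highest there were RRN3, which brings RNA polymerase I to ribosomal DNA, at 1.48 (SE 0.12) and ZNHIT6, a box C/D assembly factor, at 1.42 (SE 0.16) in the authors' deposited table. PNO1, a small-subunit factor, had the highest value in HepG2, 1.08 (SE 0.20) by the authors' deposited table. TCOF1 (treacle, a cofactor of RNA polymerase I) fell with MS7126 in HepG2 (-1.33, SE 0.25) and Huh7 (-0.60, SE 0.16), with C24 (-0.96, SE 0.21) and with MS7126N2 (-1.10, SE 0.29) in the authors' deposited tables. With the HepG2 hairpins TCOF1 had 1.06, 0.56, 0.86 and 0.24 (not called) in the authors' deposited tables.

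With C24, 0 of 111 further factors with an adjusted p rose and 10 fell, and with MS8815 0 of 115 rose and 41 fell, with Rpf2 at -0.49 (SE 0.14) and Rrp1b at -0.48 (SE 0.10), in the authors' deposited tables. The shares were 0% and 9.01% with C24 and 0% and 35.7% with MS8815, against 3.01% and 4.01% and 5.62% and 13% of well-measured genes. In Huh7 shEZH2 9 rose and 27 fell by edgeR, from TMA16 at -0.59 to SHQ1 at 0.40. This is 7.76% and 23.3%, against 21.8% and 25.3% of well-measured genes, so the share that fell lies near the background. With the HepG2 hairpins 37 rose and 68 fell (labelled shEZH2), then 33 and 51, 36 and 29, and 25 and 32, in the authors' deposited tables. The shares were 31.9% and 58.6% (labelled shEZH2), 28.4% and 44% (#664), 31% and 25% (#665) and 21.6% and 27.6% (#667). The background of well-measured genes was 30.8% and 39.8%, 29% and 36.6%, 21.3% and 28% and 20.7% and 25.4%. Both shares of #667 lie near it. So do the shares that rose with #664 and in the libraries labelled shEZH2, and the share that fell with #665. In the libraries labelled shEZH2, 6 small-subunit factors rose and 34 fell in the authors' deposited table. Over all the further factors there, NAF1 of snoRNP assembly was lowest at -1.55 and TAF1D of RNA polymerase I transcription highest at 1.26 in the authors' deposited table.

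Of 78 ribosomal protein genes, the structural parts of the ribosome, 3 rose and 3 fell with MS7126 in HepG2, 10 rose and 4 fell with C24, and 0 rose and 15 fell with MS7126 in Huh7 (23 at an unadjusted p under 0.05) by the Wald test of the authors' deposited tables. The shares were 3.85% and 3.85% with MS7126 in HepG2, 12.8% and 5.13% with C24 and 0% and 19.2% with MS7126 in Huh7, against 9.16% and 10%, 3.01% and 4.01% and 22.9% and 21.8% of well-measured genes, so the share that fell in Huh7 lies near the background. After EZH2 knockdown in Huh7, 39 rose and 7 fell by edgeR, with RPLP0 the lowest at -0.23, which is 50% and 8.97%, against 21.8% and 25.3% of well-measured genes. With MS8815, 5 of 76 fell and 0 rose (13 at an unadjusted p under 0.05), by the Wald test of the authors' deposited table, where 5.62% and 13% of well-measured genes rose and fell. With the HepG2 hairpins 29 rose and 43 fell (labelled shEZH2), then 42 and 28, 16 and 33, and 26 and 17, in the authors' deposited tables. The shares were 37.2% and 55.1% (labelled shEZH2), 53.8% and 35.9% (#664), 20.5% and 42.3% (#665) and 33.3% and 21.8% (#667), beside the background just given for these hairpins. The share that rose with #665, and the shares that fell with #664 and #667, lie near it. NPM1 has 45 pseudogenes by name, and ribosomal protein genes have such copies too, so reads may be split between copies.

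MYC rose with MS7126 in Huh7, with a log2 value of 1.32 (SE 0.12, adjusted p = 1.62e-25), and had 0.90 (SE 0.35, adjusted p = 0.0609) with MS7126 in HepG2 in the authors' deposited tables. With C24, MS7126N1, MS7126N2 and MS8815 it had 0.17, -0.10, -0.04 and -0.11, none called, in the authors' deposited tables. With the HepG2 hairpins it had -0.51, -0.35, -0.47 and -0.34 in the authors' deposited tables. In Huh7 shEZH2 MYC had 97.8 and 103 CPM in the shEZH2 libraries, against 93.4 and 91.9 CPM in the shControl libraries (edgeR adjusted p = 0.0581). EZH2 itself had -0.29, SE 0.27 (not called) with MS7126 in HepG2, and fell with MS7126 in Huh7 (-0.46, SE 0.13) and with MS8815 (-0.24, SE 0.07) in the authors' deposited tables. SREBF2 fell with MS7126 in HepG2 (-1.01) and Huh7 (-0.39) and with MS8815 (-0.55), and rose with C24 (0.53), in the authors' deposited tables. The part of MYC, EZH2 or SREBF2 in the values of the 33 genes was not tested.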

How the data were processed

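Groups came from the sample labels. The submitters' processing notes name STAR 2.4.2, Salmon, GRCh38 and mm10; whether counting used strand is not given there. Per the file headers, the 12 tables without library values hold the authors' mean normalized signal of a gene, its log2 fold change over control with a standard error, a test statistic (a score), and raw and adjusted p-values, laid out as DESeq2 writes them. For Huh7 shEZH2 the authors also deposited estimated counts for each library.

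Those estimated counts were rounded and fitted with edgeR 4.0.16 in R 4.3.3 (quasi-likelihood, TMM, filterByExpr, 14581 genes, no block). Of 15228 rows, 20 with dates in place of symbols were left out. DESeq2 1.42.0 was an alternative. Elsewhere the deposited values were used as they stand, with calls at an adjusted p under 0.05. Signs were checked by rebuilding control levels in tables that share controls, which Huh7 MS7126 does not. Compounds were compared by dividing the difference of their fold changes by its standard error, from summed variances (two-sided normal test, Benjamini-Hochberg over all genes). These steps were tested on simulated data. Transcript GC and exon overlaps came from GENCODE v29 and promoters from RefSeq; mouse promoters were not analysed here. Genes named were NPM1, NCL, FBL, NOP56 and POLR1A, the 4 highest and 4 lowest called, genes called in opposite directions, extremes of wider lists, and EZH2, SREBF2 and MYC; others were named after their values were seen, and a few results under this rule are not reported here. The members and lists were chosen with earlier results of these data known. Libraries of Huh7 shEZH2 and shControl with the same number did not deviate together (correlation -0.0245). This shows no shared deviation, but cannot show whether they were cultured or processed together.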

Additional observations from a re-analysis of the deposited data

Results flagged for a closer look

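Differences between compounds at one dose and time were tested directly. The fold change over DMSO was higher with MS7126 than with C24 for 5 of the 33 genes (DDX21, WDR43, NOP16, IMP4 and BOP1) in HepG2, and higher with MS7126 than with MS7126N1 for 1 gene, BOP1. Of all genes, 1.87% and 1.32% were called higher in these 2 pairs. In WEHI-231 the fold change was lower with MS8815 than with EPZ-6438 for 6 genes (Fbl, Nhp2, Bop1, Nop56, Npm1 and Mybbp1a) and lower with MS8815 than with MS8815N for 6 genes (Nop56, Utp20, Wdr43, Fbl, Dkc1 and Mybbp1a). Of all genes, 2.22% and 1.47% were called lower in these WEHI-231 pairs.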

How the results depend on the processing

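Of 179 alternative values for 49 results, 160 stayed on the same side within the limits set, 19 moved and 0 reversed. Most of these results are counts of calls, which have no sign to reverse, and several were 0 under each setting. The median with #665, 0.035 and after recentring 0.108, was counted as the same. This tally is therefore no measure of how firm the calls are. At an adjusted p under 0.01, 4 genes rose with MS7126 in HepG2, and 1 fell with MS7126 in Huh7, where 1 also fell with the GC trend taken out. In Huh7 shEZH2, DESeq2 and the authors' deposited values each gave 1 higher and 7 lower; with deposited standard errors, 4 fell after recentring on well-measured genes and 4 with the GC trend taken out. Leaving out 1 library at a time, the lone library being assumed to vary like the other group, gave 3 to 4 higher and 8 to 11 lower. With a replicate block, edgeR gave 3 higher and 11 lower. Recentring moved the median of the 33 genes to -0.33 in the HepG2 libraries labelled shEZH2 and to -0.052 with #664. With #665, 7 genes fell after recentring and 7 with the GC trend taken out. With the covariance of shared DMSO libraries subtracted, 13 genes were higher with MS7126 than with C24 and 7 higher than with MS7126N1, and 19 were lower with MS8815 than with EPZ-6438 and 16 lower than with MS8815N; recentring gave 3 and 3 in these WEHI-231 pairs. The covariance was assumed from the SEs, not estimated. No share of all genes is given beside any count in this section, so these counts have no background. The causes were not tested. The GC correction, and adjustment over all 5 pairs together, were chosen after seeing the data; the second gave 4, 1, 6 and 8 genes in the 4 pairs just named. Libraries could not be left out of the 12 tables without library values. Low levels limit POLR1C in HepG2 (a mean of 60.3 with MS7126) and Nolc1 in WEHI-231.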
